A study of Arabidopsis thaliana with 15 samples.

Results

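FLC and its closest MADS-box relatives are 6 genes of Arabidopsis thaliana, FLC (AT5G10140), FLM (AT1G77080), MAF2 (AT5G65050), MAF3 (AT5G65060), MAF4 (AT5G65070) and MAF5 (AT5G65080), taken by their identifiers from the 27444 nuclear protein-coding genes of the gene table. All listed peaks of 3 histone marks over these gene bodies and up to 1000 bp to either side were collected, which gave 24 of the 54366 peaks in the deposited lists. The gene table names FLM MAF1 and MAF2 AGL31. FLM lies on chromosome 1 and the other 5 genes lie on chromosome 5, where MAF2 to MAF5 form a tandem row.

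The chromatin had been digested with micrococcal nuclease (MNase) without crosslinking, for native ChIP-seq, from whole seedlings of accession Col-0 at 8 days of age, grown on plates in long days after cold stratification of the seed. The MNase input and the precipitates of total H3, H3K4me2, H3K4me3 and H3K36me3 were each sequenced in wild type, in the single mutant fpa-7 and in a triple mutant labelled bdrs, with 1 library for each assay and genotype and 15 libraries in all. For 1 of them, the MNase input of bdrs, which gave no peak list, the labels name both 7 and 8 days. The peaks used here come from 3 lists, 1 per methylation mark, for which the mark's libraries were pooled and set against pooled total H3. The genotypes that entered the pool are not stated, so no value below belongs to 1 genotype, there is no replicate error and no test, and the read depth is unknown. The lists hold no RNA measurement with which the tissue could be checked against marker genes.

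FLC encodes a MADS-box repressor of flowering, and its relatives repress flowering to differing degrees and at differing temperatures. FLC acts together with the partner SVP on the floral inducers FT and SOC1, its activity is raised by FRI and lowered by the autonomous pathway, of which FPA is a part, and cold silences it through Polycomb proteins in vernalization. Accession Col-0 carries a FRI allele without function. H3K4me3 is found at the 5′ end of active genes in plants, H3K36me3 spreads from there into the gene body, and H3K4me2 occurs at active and inactive genes alike. Antisense transcripts are known from the 3′ end of FLC (COOLAIR) and from MAF4 (MAS), and none was measured here. FLC is transcribed towards lower coordinates and the other 5 genes towards higher ones, and the 5′ end below means the gene end of the table on that side.

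All 6 genes carried H3K4me2 and H3K4me3, and all but MAF5 carried H3K36me3. To count as carrying a mark, a gene needed 200 bp or more of its body under listed peaks. Under this rule H3K4me2 was on 75.0% of all nuclear protein-coding genes, H3K4me3 on 62.7% and H3K36me3 on 49.9%. The 6 genes are long, from 4010 bp to 6067 bp, and long genes carried the marks more often. Among the 2395 genes of that length range the shares were 91.2% for H3K4me2, 84.0% for H3K4me3 and 72.4% for H3K36me3, so the counts of 6, 6 and 5 genes lie near what such genes show. The state with all 3 marks, found in 5 members, was that of 70.1% of the genes of that length, and the state of MAF5, H3K4me2 with H3K4me3, was that of 11.9%. Stricter rules left fewer members. Their shares are given over all genes and not over the length range, so these counts are not read as a trait of the family. With the strongest 50% of each list, 3 members carried H3K4me2 (40.7% of all genes), 4 carried H3K4me3 (33.2%) and 3 carried H3K36me3 (25.7%). With 50% of the gene body required, the counts were 1, 0 and 4 members, against 34.3%, 19.0% and 42.4% of all genes.

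Of the 24 peaks, 21 touched a gene body of the family, 9 with H3K4me2, 7 with H3K4me3 and 5 with H3K36me3. The other 3, which the window brought in beside FLM, lay on the next gene, AT1G77090.

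FLC carried its marks at the 5′ end, with H3K36me3 reaching furthest in. The H3K4me3 peak ran on chromosome 5 from 3178615 to 3179415 (TAIR10), 801 bp wide, with its summit 206 bp inside the 5′ end of the gene. The H3K36me3 peak ran from 3176101 to 3179402, and at 3302 bp it was wider than 91.9% of the peaks of its list. It began within 13 bp of the 5′ edge of the H3K4me3 peak and went on for 2514 bp beyond its other edge, so that 54.4% of the gene body lay under H3K36me3 and 13.2% under H3K4me3.

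The H3K4me2 peak at the 5′ end of FLC was the strongest of the family. It ran from 3178323 to 3179426, 1104 bp wide, with a fold of 5.25 over total H3 and a −log10 p of 118, above 90.6% of the peaks of its list by −log10 p. The folds and p-values are the peak caller's own, given by the authors for each peak, and they rank peaks only within their list. The H3K4me3 peak had a fold of 8.90, above 51.0% of its list, and a −log10 p of 466, above 81.7%. The H3K36me3 peak, with a fold of 4.71, stood above only 24.6% of its list by fold and 37.3% by −log10 p. FLC thus held a high place for H3K4me2 and a low one for H3K36me3 over the same stretch of the gene. The lists pool libraries of unstated genotype, so the marks need not lie on the same chromatin.

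A second H3K4me2 peak lay at the opposite end of FLC. It ran from 3173420 to 3173960, 541 bp wide, with its summit 144 bp inside the 3′ end, and its fold of 2.91 was above 35.1% of the list. No listed H3K4me3 or H3K36me3 peak lay there. Between the H3K4me2 peaks at the 2 ends, 4362 bp inside the gene held no listed H3K4me2 peak, but the peak numbers skip 2 called peaks there, which had been left out before deposit. The numbers also skip 3 called H3K4me3 peaks and 1 called H3K36me3 peak between those on FLC and the next listed ones beyond its 3′ end, and whether any of these lay in the 3′ part of FLC is not known. The gene table also lists a long noncoding RNA gene, AT5G01675, over the whole of FLC, and the peaks cannot be assigned to one of the overlapping genes.

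**Figure D1:**
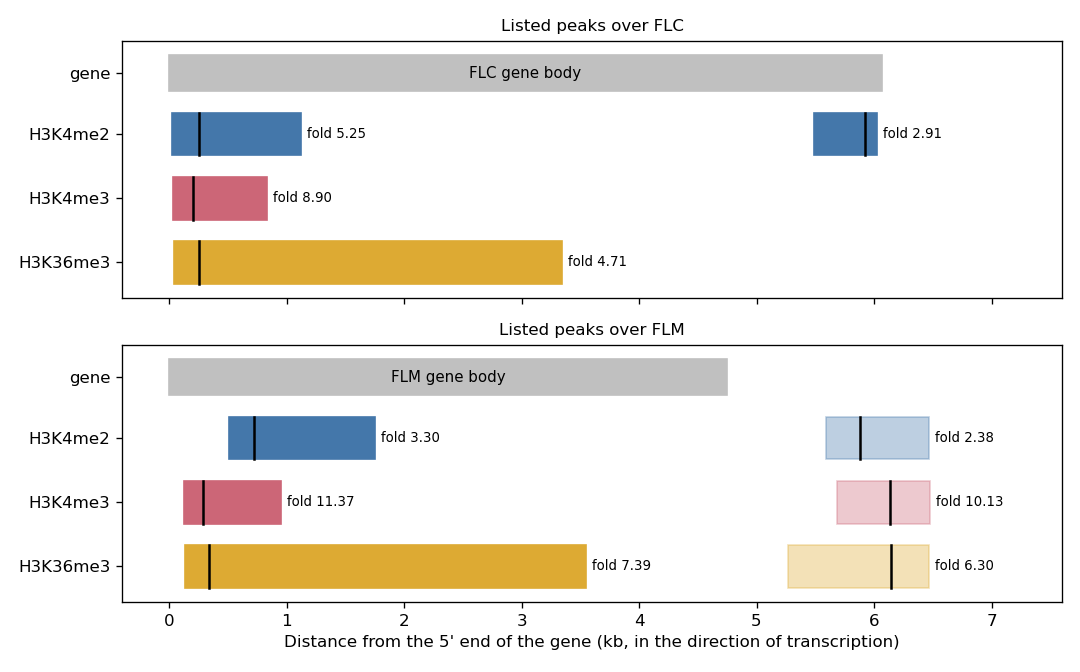
Listed peaks over FLC and FLM, drawn against the distance from the 5′ end of the gene in kb, with the summit of each peak as a black line and its fold beside it; pale peaks lie beyond the gene body. H3K4me3 and H3K36me3 start together at the 5′ end of both genes, H3K4me2 starts with them in FLC and further inside in FLM, and FLC has a second H3K4me2 peak at its 3′ end.

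FLM, a repressor whose splice forms vary with temperature, carried strong H3K4me3 and H3K36me3 and middling H3K4me2. Its H3K4me3 peak, on chromosome 1 from 28955614 to 28956434, had a fold of 11.4 and stood above 91.9% of its list by −log10 p. Its H3K36me3 peak, from 28955621 to 28959030, was the widest of the family at 3410 bp, covered 71.8% of the gene and stood above 93.3% (fold 7.39). Its H3K4me2 peak, from 28955989 to 28957238, had a fold of 3.30, above 47.6% of its list. This peak began 375 bp downstream of the H3K4me3 peak, and its summit lay 434 bp downstream of the H3K4me3 summit, where in FLC the summits were 51 bp apart.

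The gene after FLM began 77 bp beyond its 3′ end and carried all 3 marks. The peaks on AT1G77090 began 841 bp (H3K4me2), 930 bp (H3K4me3) and 515 bp (H3K36me3) beyond the end of FLM, inside the window of 1000 bp, with folds of 2.38, 10.1 and 6.30. The nearest peaks left outside a window were the H3K4me3 and H3K36me3 peaks of MAF3, which began 1014 bp and 1022 bp beyond MAF2 and were counted with MAF3, and the H3K4me2 peak on BST1, a gene of root hair growth, 1066 bp beyond MAF5 (fold 3.39). On the other side of FLM the nearest gene, AT1G77060, carried all 3 marks as well. Beside FLC, AT5G10150 carried all 3 marks, while AT5G10130 carried H3K4me2 with no listed peak of the other marks.

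MAF2 to MAF5 stand in a row of 20366 bp, and the marks changed along it. MAF2 and MAF3 carried strong H3K4me3 and H3K36me3, MAF4 carried weaker peaks of both, and MAF5 a weak H3K4me3 peak and no listed H3K36me3. H3K4me2, taken at the peak nearest the 5′ end, ran the other way and was stronger in MAF4 and MAF5 than in MAF2 and MAF3. Peaks covered 41.0% of the row with H3K4me2, 18.0% with H3K4me3 and 36.4% with H3K36me3, and 0 bp of the gaps of 873, 780 and 1301 bp between the genes lay under a listed peak of any mark.

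MAF2, which holds back the response to short spells of cold, held the H3K4me3 peak with the highest fold of the family. The peak, on chromosome 5 from 25982343 to 25983283, had a fold of 11.5 and stood above 96.7% of its list by −log10 p. MAF3, a further repressor of the same kind, was close to it, with an H3K4me3 peak from 25987449 to 25988467 (fold 11.4, above 92.2%). The peak on MAF3 shares its fold and its −log10 p of 526 exactly with 15 other peaks of the list, so the order of MAF2, MAF3 and FLM, at folds of 11.4 to 11.5, is not one of clear differences.

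H3K36me3 was strongest on the same 2 genes. The peak on MAF3, from 25987457 to 25990429, had a fold of 8.19 and the peak on MAF2, from 25982364 to 25984975, a fold of 8.03, above 97.7% and 97.6% of the list by −log10 p. Both peaks were wide, at 2973 bp and 2612 bp, and covered 72.4% and 62.5% of the genes. MAF2 and MAF3 are close copies of each other and can share reads, and how such reads were treated is not stated, so the values of each are uncertain.

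H3K4me2 on MAF2 and MAF3 was wide and low. On MAF3 the peak ran from 25987978 to 25990412, 2435 bp wide and above 97.9% of its list by width, yet with a fold of 2.73, above 28.6%. Its end fell 17 bp short of the end of the H3K36me3 peak, and all of it lay under that peak. On MAF2 the peak ran from 25982429 to 25983994, 1566 bp wide, with a fold of 3.01, above 38.5%. The H3K4me2 summits lay 525 bp (MAF3) and 376 bp (MAF2) downstream of the H3K4me3 summits.

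MAF4 carried peaks of H3K4me2 and H3K4me3 at both of its ends. At the 5′ end H3K4me3 ran from 25992234 to 25992834 (fold 7.35, above 29.1% of its list by −log10 p) and H3K4me2 from 25992223 to 25993036 (fold 4.74, above 79.3%), with summits 1 bp apart. H3K36me3 ran from there to 25994080 over 1820 bp, the narrowest listed H3K36me3 peak of the family, with a fold of 4.06, above 12.0% of its list. The numbers skip 2 called H3K36me3 peaks between it and the next listed one. Of that gap 2122 bp lie inside MAF4, and whether either peak lay there is not known. At the 3′ end H3K4me3 ran from 25995489 to 25996145 (fold 3.04) and H3K4me2 from 25995119 to 25996187 (fold 3.54), with summits 14 bp apart and 297 bp and 311 bp inside the gene end. The H3K4me3 peak at the 3′ end was among the weakest listed, above 1.21% of the list, while the H3K4me2 peak there was above 56.7%.

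MAF5, the last gene of the row, carried the weakest 5′ H3K4me3 of the family and no listed H3K36me3. Its H3K4me3 peak, from 25997601 to 25998043, was 443 bp wide with a fold of 3.45 and stood above 5.99% of its list. The H3K4me2 peak over it, from 25997535 to 25998128, had a fold of 4.86 and stood above 88.6%, and the summits were 8 bp apart. A wide H3K4me2 peak of 1882 bp lay in the 3′ part, from 26000643 to 26002524, with a fold of 3.75 and a summit 447 bp inside the gene end. The 16797 bp between the H3K36me3 peak of MAF4 and the next listed one hold the whole of MAF5. The numbers skip 2 called H3K36me3 peaks there, so weaker H3K36me3 on MAF5 cannot be told apart from none. They also skip 2 called H3K4me3 peaks in the 12754 bp between the H3K4me3 peak of MAF5 and the next listed one. Of that gap 4576 bp lie inside MAF5, and whether either peak lay in its 3′ part is not known.

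**Figure D2:**
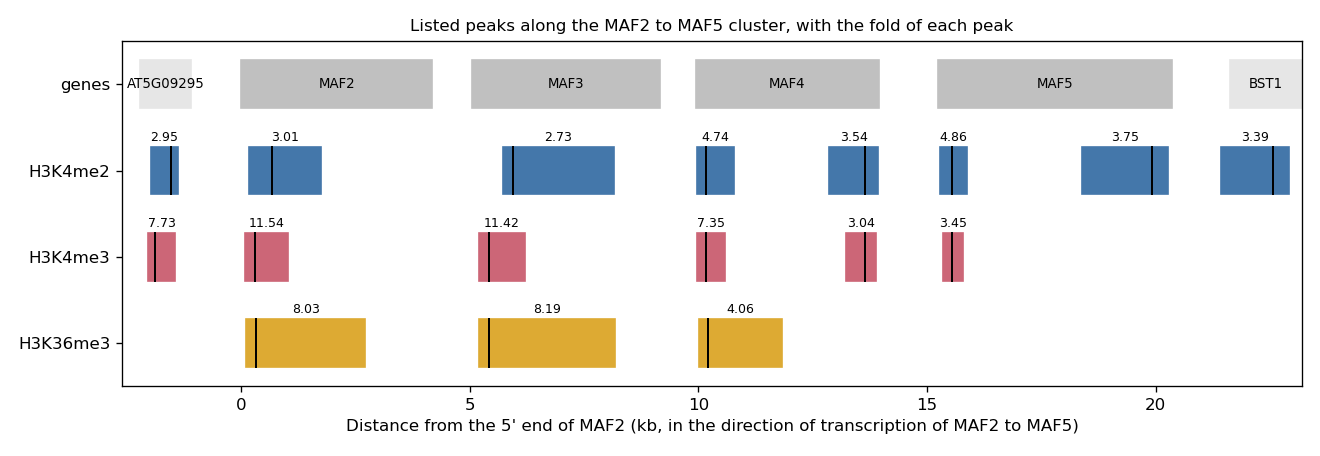
Listed peaks of the 3 marks along the row of MAF2 to MAF5, against the distance from the 5′ end of MAF2 in kb, with summits as black lines and the fold above each peak; the neighbours AT5G09295 and BST1 are in pale grey. H3K4me3 and H3K36me3 folds are highest at MAF2 and MAF3. H3K4me2 folds of the peak nearest the 5′ end of each gene are highest at MAF4 and MAF5.

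Beyond the row the trimethyl marks were not listed at the next coding genes. BST1 after MAF5 and AT5G65040 before MAF2 each carried H3K4me2 alone. Between AT5G65040 and MAF2, 1100 bp before MAF2, the long noncoding RNA gene AT5G09295 carried H3K4me3 (fold 7.73) and H3K4me2 (fold 2.95) with no listed H3K36me3.

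Set side by side by the peak nearest the 5′ end, FLM, MAF2 and MAF3 ranked above FLC, MAF4 and MAF5 for H3K4me3 and below them for H3K4me2. The order was not a plain reversal, as FLC ranked 1 for H3K4me2 and 4 for H3K4me3. The H3K4me2 peaks compared differ in place. Their summits lay 239 to 290 bp inside MAF4, FLC and MAF5, but 681 to 887 bp inside MAF2, FLM and MAF3. By H3K4me3 fold the order was MAF2, MAF3, FLM, FLC, MAF4 and MAF5, from 11.5 down to 3.45, with the first 3 close together. By H3K36me3 fold the order was MAF3, MAF2, FLM, FLC and MAF4, from 8.19 down to 4.06. By H3K4me2 fold it was FLC, MAF5, MAF4, FLM, MAF2 and MAF3, from 5.25 down to 2.73. With no replicates, none of these orders has an error.

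Across the genome the H3K4me3 and H3K4me2 folds also ran in opposite directions, taken on the peak that covers most of each gene. With these peaks Spearman's rho was −0.336 over 16324 genes with both marks and −0.714 over the 6 genes. In MAF4 and MAF5 the H3K4me2 peak so taken is the 3′ one, and in MAF4 the H3K4me3 peak also. The rho of −0.714 is therefore not that of the 5′ orders above. The H3K4me3 and H3K36me3 folds rose together over all 13505 genes with both, with a rho of 0.714. The values for one gene come from the same pooled chromatin and share the total H3 control, and genes are not replicates, so these are descriptions.

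**Figure D3:**
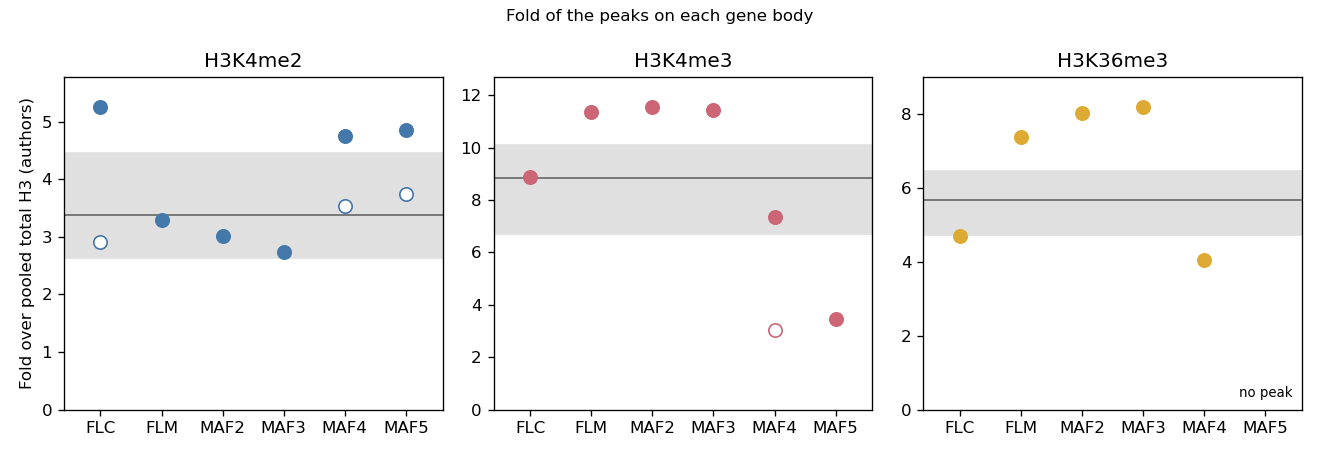
Fold of every peak on each gene body, with 1 panel per mark (fold over pooled total H3, from the authors' lists); filled points are the peaks nearest the 5′ end, open points the peaks towards the 3′ end, the line is the median and the grey band the middle 50% of all peaks of the list. FLM, MAF2 and MAF3 lie above the band for H3K4me3 and H3K36me3, and FLC, MAF4 and MAF5 lie above it for H3K4me2 at the 5′ end.

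FLC differed in its H3K4me2 from most genes with strong H3K4me3 by −log10 p. By fold its H3K4me3 peak stood above only 51.0% of the list. The comparisons here and of the summit distances below rest on the ranking by −log10 p, and none was made by fold. Of the 4261 other genes with H3K4me2 in the strongest 25% of the H3K4me3 list by −log10 p, 96.6% had an H3K4me2 fold below the 5.25 of FLC, and the median was 3.20. FLM, MAF2 and MAF3 belong to the same part of the list, where 54.1%, 41.5% and 28.3% of genes had a lower H3K4me2 fold than they did. In these comparisons each gene, members included, enters with the peak of a mark that covers most of it. That is the peak nearest the 5′ end in the genes named so far. For H3K4me2 it is the 3′ peak in MAF4 and MAF5, and for H3K4me3 also in MAF4. With these peaks both genes fall in the weakest 25% of the H3K4me3 list, where 27.4% of genes had a lower H3K4me2 fold than the 3.54 of MAF4 and 31.9% a lower one than the 3.75 of MAF5. Their 5′ H3K4me2 peaks, at folds of 4.74 and 4.86, were not placed among other genes.

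The distance between the H3K4me2 and H3K4me3 summits nearest the 5′ end was longer in FLM, MAF2 and MAF3 than in the other 3 genes. Over all genes with both marks, the median distance was 48 bp in the weakest 25% of the H3K4me3 list, 291 bp and 339 bp in the parts above it and 401 bp in the strongest 25%. The 434 bp of FLM and the 376 bp of MAF2 lay in the middle 50% of the strongest part, 302 bp to 496 bp, and the 525 bp of MAF3 above it. The 51 bp of FLC lay below it, and 6.22% of the other genes of that part had a distance as short. The 5′ peaks of MAF4 and MAF5, with summits 1 bp and 8 bp apart, are not the peaks that cover most of these genes and have no such share. H3K36me3 summits stayed within 53 bp of the H3K4me3 summits in all 5 genes that carried H3K36me3, and the 5′ edges of these peaks within 27 bp.

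**Figure D4:**
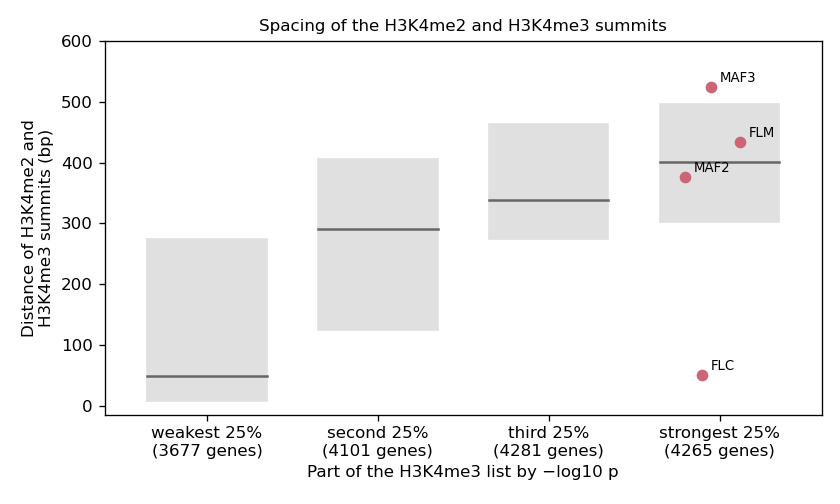
Distance in bp between the H3K4me2 and H3K4me3 summits nearest the 5′ end of FLC, FLM, MAF2 and MAF3 (points). In these genes the peaks that cover most of the gene are those nearest that end. Each point stands at the part of the H3K4me3 list its gene falls in by −log10 p. Grey boxes are the middle 50% of all genes with both marks in that part and the lines their medians. Both were taken on the peaks that cover most of each gene. FLC lies at 51 bp, under the box of the strongest 25%, where FLM, MAF2 and MAF3 lie between 376 and 525 bp.

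H3K4me2 summits near both ends, as in FLC, MAF4 and MAF5, were uncommon in genes of this length. Summits within 500 bp of each end, inside the gene, were found in 2.67% of the 2395 genes of the length range and 3.96% of all genes, and in 3 of the 6 members. With a limit of 250 bp the count was 0 of 6, against 0.209% of genes in the length range, so the count rests on the limit. For H3K4me3 the share was 1.34% of the genes in the length range, and by listed peaks MAF4 was the 1 member with it. Called H3K4me3 peaks had been left out in gaps that include the 3′ parts of FLC and MAF5. The feature of summits near both ends was picked after the peaks had been seen, and no test was made of it.

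The gene bodies were divided differently among the marks. H3K36me3 without either H3K4 mark took 36.6% of FLC and 37.7% of FLM, 26.0% of MAF4, 23.5% of MAF2 and 0.414% of MAF3, where H3K4me2 overlapped 81.9% of the H3K36me3 peak and H3K4me3 most of the rest. H3K4me2 with H3K36me3 and without H3K4me3 took 47.4% of MAF3, 17.0% of MAF2, 16.9% of FLM and about 5% of FLC and MAF4 (4.81% and 5.04%). In MAF5, 39.7% of the body lay under H3K4me2 with no listed peak of the other marks, and 51.6% under no listed peak at all. Called peaks of both trimethyl marks had been left out in gaps that reach into MAF5. For H3K36me3 that gap reaches into MAF4 as well. The stretch with all 3 marks measured from 446 bp in FLM to 855 bp in MAF2, and MAF5 had none by listed peaks.

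**Figure D5:**
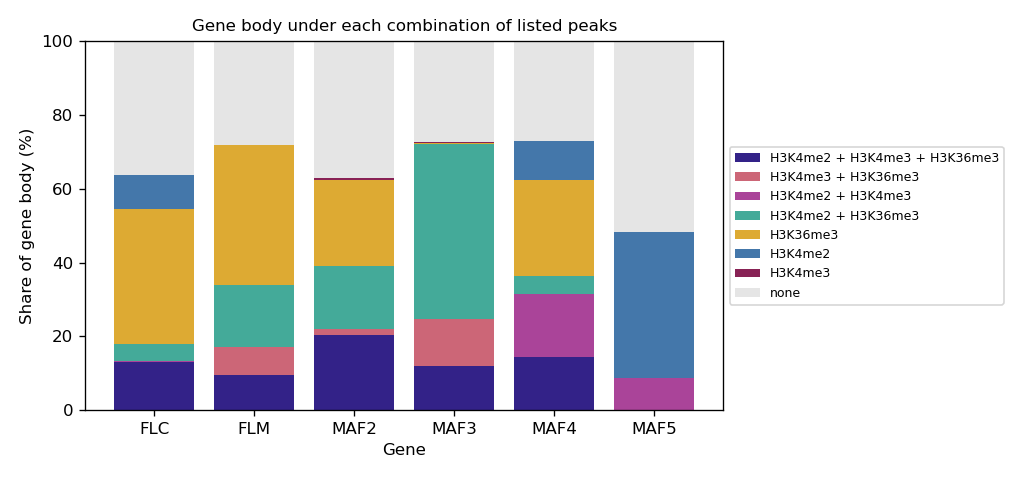
Share of each gene body, in percent, under each combination of listed peaks of the 3 marks, with 1 bar per gene. MAF5 has no part under H3K36me3, MAF3 has the most under H3K4me2 with H3K36me3 (47.4%), and FLC and FLM have the most under H3K36me3 alone (36.6% and 37.7%).

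Measured from the 5′ end, the trimethyl-mark summits nearest that end lay at similar distances in the members that carried each mark. The H3K4me3 summit nearest the 5′ end lay 206 bp inside the gene in FLC, 240 bp in MAF4, 292 bp in FLM, 298 bp in MAF5, 305 bp in MAF2 and 362 bp in MAF3. The H3K36me3 summits lay from 259 bp (FLC) to 364 bp (MAF3) inside. The H3K4me2 summits spread further, with FLC, MAF4 and MAF5 at 257, 239 and 290 bp and MAF2, FLM and MAF3 at 681, 726 and 887 bp. These distances depend on the gene ends of the table.

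The share of the body under H3K4me2 was above the median of genes of this length in MAF2 to MAF5 and near it in FLC and FLM. It was 59.3% in MAF3, 48.4% in MAF5, 47.0% in MAF4 and 37.4% in MAF2, and 27.1% in FLC and 26.3% in FLM, where the median of the 2184 genes with H3K4me2 in the length range was 27.5%. For H3K4me3 the shares ran from 8.66% in MAF5 to 31.4% in MAF4, around a median of 18.3% for such genes. H3K36me3, from 45.4% in MAF4 to 72.4% in MAF3, lay on both sides of the median of 60.0%. Called H3K36me3 peaks had been left out in gaps that reach into MAF4 and FLC, so their shares count listed peaks only. In FLM, 1 called H3K4me2 peak had been left out between the peak on the gene and that on AT1G77090, and 1 between the H3K4me2 peaks of MAF2 and MAF3.

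The pathway lists are set against the shares of all nuclear protein-coding genes, 75.0% with H3K4me2, 62.7% with H3K4me3 and 49.9% with H3K36me3. These are shares of single marks, and none over all genes is given for a combination of marks. All 3 marks together can be on no more than the 49.9% with H3K36me3. These shares make no allowance for gene length, and longer genes carried the marks more often. Among the 2395 genes of 4010 bp to 6067 bp the shares were 91.2%, 84.0% and 72.4%, and 70.1% carried all 3. The listed genes ran from 1612 bp (FRL1) to 9533 bp (EFS). No share is given for genes of like length, so the counts are not read as a trait of the lists. Counts by combination are descriptions, and no difference between lists was tested. All 18 activators of FLC carried all 3 marks, among them FRI, which encodes the scaffold of an activating complex, and its relative FRL1, FES1 and SUF4, at H3K4me3 folds of 11.4, 10.3, 7.83 and 10.9. Of the 7 autonomous pathway genes, 6 carried all 3, the exception being FPA, which had no listed H3K4me2 (H3K4me3 fold 9.59, H3K36me3 fold 6.71). Of 10 vernalization and Polycomb genes, 9 carried all 3, and the cold-induced gene VIN3 had H3K4me2 as its sole mark (fold 3.93).

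Among the partner and targets, SVP and the FT repressor gene TEM1 carried all 3 marks, and FT and its relative TSF carried none. The floral integrator SOC1 carried H3K4me2 (fold 7.10) with weak H3K4me3 (fold 3.71) and no listed H3K36me3, the state of MAF5, and so did FD, which encodes the bZIP partner of FT. SPL15, an age pathway gene, carried H3K4me2 (fold 3.24) and H3K36me3 (fold 5.01). Of 32 other MADS-box genes of the same plant type (MIKC), 22 carried H3K4me2, where 75.0% of all genes, of any length, carried it. H3K4me3 was on 8 of them, where 62.7% of all genes carried it, and H3K36me3 on 3 of these 8, namely SVP, AGL18 and AGL16, where 49.9% did. SOC1, FUL, AGL15, AGL17 and SEP4 shared the state of MAF5, with H3K4me3 folds of 2.87 to 4.89, and 14 carried H3K4me2 alone. The 10 genes with no listed mark were AGL14, AGL19, AGL72, CAL, AGL12, AGL6, SEP2, SEP3, STK and AGL63. The difference of these counts from those of the 6 members was not tested.

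By the percent of the gene body under each mark, the genes most like FLC among 10373 others with a symbol were MCM8, NUP1 and LACS9. FLC had 27.1% under H3K4me2, 13.2% under H3K4me3 and 54.4% under H3K36me3, and the Euclidean distance over these 3 values was 1.66 percentage points for MCM8, 1.99 for NUP1 and 2.39 for LACS9. Of its own relatives MAF2 was nearest, at 16.1 percentage points and place 762, and MAF5 furthest, at 58.6. With 1000 bp added on both sides of each gene, 0 of the 3 stayed among the first 3.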

How the data were processed

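Peaks of H3K4me2, H3K4me3 and H3K36me3 came from 3 deposited lists, which the labels name for 9 libraries. The submitters' processing notes name TAIR10 as the build and, with no role or setting, the tools MACS2, SAMtools 1.3, Picard 2.2.4, R 3.3.2, Bowtie2 2.2.6 and Trimmomatic 0.33. Per the deposited peak names, the mark's pool was compared with the pool of H3. The layout is narrowPeak, so the deposited fold is taken as a ratio over H3 and the deposited −log10 p as MACS2's own. The deposited score repeats the −log10 p, multiplied by 10. Whether the fold uses local H3 is not stated. The deposited lists keep 62.8% (H3K4me2), 76.3% (H3K4me3) and 62.8% (H3K36me3) of the peak numbers, by a choice that no source used here gives.

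Gene ends came from the NCBI RefSeq table of TAIR10.1 and only placed the peaks. Every printed coordinate is a peak's own on TAIR10, counted from 1. More of the peak sequence fell inside genes at an offset of 0 bp than at any other step of 100 bp up to 1000 bp, for each mark. The direction of transcription is background knowledge. Percentiles are the percent of a list's peaks with a lower value. Where a gene had several peaks of a mark, genome-wide values used the peak covering most of it. Named genes are the members, their neighbours, the 3 genes nearest FLC in covered share, and in each gene list those outside its commonest state or the first 4. The members and lists were chosen with earlier results of these data known. No test was made, as no value belongs to a single library. Counting code was tested on simulated peaks (Python 3.11.15, pandas 2.3.3). Alternatives were other rules for carrying a mark, windows, stricter lists and rankings.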

Additional observations from a re-analysis of the deposited data

How the results depend on the processing

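No paired analysis was possible because the lists hold pooled libraries and no result comes from a test. Requiring 50% of the gene body left 1 member with H3K4me2 (MAF3) and 0 with H3K4me3, and 7 and 2 genes of the 72 in all pathway lists (59 and 44 otherwise), as the peaks are shorter than 50% of most of these genes. Among the strongest 50% of peaks, 3 members carried H3K4me2 (FLC, MAF4 and MAF5) and 3 carried H3K36me3 (FLM, MAF2 and MAF3), the windows held 5 H3K4me2 and 5 H3K4me3 peaks instead of 10 and 8, and 25 pathway genes each carried H3K4me2 and H3K36me3 (59 and 39 otherwise). Cutting every list to the length of the shortest left 6 H3K4me2 peaks in the windows. With overlap of 50% of both peaks, 0 members had H3K4me3 on H3K36me3 and 2 had H3K4me2 on H3K36me3, instead of 5 each. The narrower H3K4me3 peaks overlapped 23.9% to 35.2% of the H3K36me3 peaks. No share over all genes is given for these overlaps, so the counts are not read as a trait of the members. The median percentile of the members' peaks that cover most of the gene was 48.8, 86.8 and 93.3 for H3K4me2, H3K4me3 and H3K36me3 by −log10 p, 51.2 and 72.0 for the first 2 by fold, and 25.0, 80.0 and 35.8 per bp of width. The likeness to FLC named 0 of the same 3 genes with 1000 bp added, and H3K4me2 near both ends was found in 0 members at 250 bp, a limit chosen after seeing the data. The cause of these shifts was not tested. A weaker peak left out of a list counts as none here, and the depth is unknown.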
